A study of Mus musculus with 6 samples.

Results

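The 78 genes described here are named as proteins of the mouse mitochondrial ribosome, although Mrps36 is now placed with another complex. They are all the genes of the deposited table whose symbol is Mrpl or Mrps with a number, and each had at least 60 reads summed over the 6 libraries. They make up 78 of the 18491 genes in the table: 49 carry the large-subunit name Mrpl and 29 the small-subunit name Mrps. All 78 were among the 15474 genes abundant enough to be tested.

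Mitochondria keep their own ribosome, the mitoribosome, to translate the few respiratory-chain and ATP synthase subunits that mitochondrial DNA still encodes. Its ribosomal RNAs are made inside the organelle, whereas its proteins come from nuclear genes, are made in the cytosol and are imported. The small subunit holds the messenger RNA and decodes it, and the large subunit joins the amino acids and guides the chain to the inner membrane. Haematopoietic stem cells are known for low reliance on oxidative phosphorylation, and progenitors raise their mitochondrial activity as they differentiate.

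Total RNA came from mouse bone marrow cells, labelled as stem and progenitor cells of the blood and flow-sorted 8 months after poly(I:C). Poly(I:C) is a synthetic double-stranded RNA that switches on Mx1-cre, a recombinase under an interferon-responsive promoter that is active beyond blood cells, and the series' design text gives 3 doses. The study compared 3 wild-type (WT) libraries with 3 libraries in which Robo1, a receptor for Slit guidance proteins, was knocked out (KO), and the sources used here do not say whether WT animals carried Mx1-cre or a floxed allele. The labels disagree: the descriptions read WT and KO, the titles read shCtrl and shROBO1, the genotype field reads ROBO1 knockdown, and the treatment field names a ROBO1, ROBO2 and ROBO3 knockdown for KO libraries 1, 2 and 3. Groups here follow the descriptions, and sex and age were not given. The labels name no animals, and the p-values here speak only of variation among the 6 libraries, some or all of which may be technical.

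The libraries held 42235077 to 58106099 counted reads. Robo1 itself was not analysed here, so the labels were not checked against the targeted gene. All 11 stem and progenitor markers were present, at a summed 223 to 230 CPM (read counts scaled to a common library size) in WT and 242 to 252 in KO. Kit stood at 12.3 to 15.7 CPM in WT and 16.6 to 17.2 in KO. The granulocyte and monocyte progenitor markers Mpo, Elane, Prtn3, Ctsg and Ms4a3 summed to 84277 to 94347 CPM in WT and 260391 to 276152 in KO. Mpo, the myeloperoxidase gene of that lineage, alone held 47373 to 51024 and 144745 to 152780. The 4 eosinophil and basophil markers summed to 5393 to 6560 CPM in WT and 40345 to 45975 in KO, and the 5 erythroid markers to 908 to 1193 and 2928 to 3520. Of the erythroid list the haemoglobin genes Hba-a1 and Hbb-bs rose with TMM scaling (scale and test are explained after the promoters), Klf1 fell, and Gata1 and Tfrc did not pass. T and NK markers, 4 of 5 found, summed to 12.0 to 13.9 CPM in WT and 6.85 to 7.76 in KO. B and plasma cell markers, all 8 found, summed to 819 to 905 and 1069 to 1242, but with TMM only Jchain rose, and Cd79a, Cd79b, Ebf1 and Xbp1 fell. The 4 macrophage markers summed to 34.6 to 38.3 CPM in WT and 52.4 to 60.8 in KO, of which only Vcam1 passed the test. No listed marker that was found was at 0 in all libraries. These CPM sums rest on TMM scaling. With total counts 0 of 11 stem and progenitor markers rose and 10 fell (4.23% and 70.7% of all tested genes). Among B and plasma cell markers 0 rose and 7 fell, among T and NK 0 and 4, and among macrophage 0 and 2. Among granulocyte and monocyte progenitor markers 4 rose and 0 fell, among eosinophil and basophil 2 and 1, and among erythroid 2 and 3. The part of these cell types in the results that follow was not tested. In bulk RNA, fewer cells of a type and less RNA per cell cannot be told apart.

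The promoters of 5 members are shown because these genes had the widest shifts between the groups: Mrpl12, Mrps26 and Mrpl9 were the furthest above the other members in KO, and Mrps24 and Mrpl3 the furthest below. Each line gives the 200 bases before the RefSeq start site (GRCm38.p6), 5′ to 3′ on the gene's strand. Capitals mark matches to 4 short motifs searched on both strands: the ETS core CCGGAAG, the NRF1 core CATGCGC, the YY1 core AAGATGG and the TATA box TATAAA. ETS-family factors such as GABP, and NRF1, are textbook regulators of nuclear genes for mitochondrial proteins.
Mrpl12 (chr11:120484437-120484636, plus strand): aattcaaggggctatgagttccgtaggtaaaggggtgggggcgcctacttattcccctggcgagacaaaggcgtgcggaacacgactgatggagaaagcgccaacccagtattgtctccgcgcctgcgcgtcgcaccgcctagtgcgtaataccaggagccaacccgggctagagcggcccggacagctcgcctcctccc
Mrps26 (chr2:130563557-130563756, plus strand): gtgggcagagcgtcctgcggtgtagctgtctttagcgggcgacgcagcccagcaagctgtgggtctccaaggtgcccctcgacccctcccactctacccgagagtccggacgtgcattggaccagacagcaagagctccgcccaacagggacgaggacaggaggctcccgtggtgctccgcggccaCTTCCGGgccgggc
Mrpl9 (chr3:94443136-94443335, plus strand): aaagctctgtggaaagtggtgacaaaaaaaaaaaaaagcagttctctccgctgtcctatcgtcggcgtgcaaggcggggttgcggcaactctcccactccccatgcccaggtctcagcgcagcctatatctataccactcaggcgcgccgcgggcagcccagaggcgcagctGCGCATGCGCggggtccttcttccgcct
Mrpl3 (chr9:105053068-105053267, plus strand): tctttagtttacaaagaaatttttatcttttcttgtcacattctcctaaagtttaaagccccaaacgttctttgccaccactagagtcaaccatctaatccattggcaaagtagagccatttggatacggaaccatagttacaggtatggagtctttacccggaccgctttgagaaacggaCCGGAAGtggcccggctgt
Mrps24 (chr11:5707702-5707901, minus strand): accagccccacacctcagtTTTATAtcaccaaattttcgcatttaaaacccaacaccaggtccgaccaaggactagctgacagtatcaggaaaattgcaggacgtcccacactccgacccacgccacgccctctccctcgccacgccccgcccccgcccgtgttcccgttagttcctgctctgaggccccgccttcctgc
The Mrps26 and Mrpl3 windows each hold an ETS core, on opposite strands. The capitals in Mrpl9 are 2 NRF1 cores that overlap on the 2 strands. The Mrps24 window holds a reversed TATA box, and the Mrpl12 window holds none of the 4 motifs.

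RefSeq promoters, from 250 bases before to 50 after the start, matched 69 of the 78 members and gave 75 promoters. An ETS core stood in 34.7% of them, against 17.5% of the 12846 promoters of tested genes, 8.86% of all 32851 promoters and 36.0% of the promoters of cytosolic ribosomal protein genes. It stood in 6 of the 15 promoters of members that rose with TMM scaling, in 3 of the 13 of members that fell and in 17 of the 47 of the rest. An NRF1 core stood in 10.7% of member promoters and in 6.69% of those of tested genes. A YY1 core stood in 17.3% and 7.08%, and a TATA box in 6.67% and 7.37%. YY1 cores were found in 5 of 13 promoters of members that fell, 3 of 15 of those that rose and 5 of 47 of the rest. A match describes letters in the window, not a bound site.

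The comparison of KO with WT was made on 2 scales, because the libraries differed in composition. The 100 most abundant genes of each library took 42.9 ± 0.595% of counts in WT and 60.3 ± 0.583% in KO (mean ± SD, n = 3 each). TMM scaling, from edgeR, sets library sizes so that the bulk of genes does not move. The median log2 fold change (KO over WT) of all tested genes was -0.09 with TMM and -1.22 with library totals alone. A gene is said to have risen or fallen where edgeR's quasi-likelihood test gave a Benjamini-Hochberg adjusted p under 0.05 over all tested genes. CPM values use TMM-scaled library sizes.

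With TMM scaling the mitochondrial ribosomal proteins did not move as a block. In KO 19 of 78 rose, 13 fell and 46 did not pass the test, that is 24.4% and 16.7% of the members against a background of 17.2% higher and 14.4% lower over all tested genes. The median log2 fold change of the members was 0.03. The middle 50% of members lay between -0.18 and 0.25, a width of 0.43, against 0.84 for all tested genes. Those genes were not matched to the members for abundance, so the widths are not compared on like terms. The extremes were Mrpl3, at -1.71, and Mrpl12, at 1.06, and only Mrpl12, Mrpl3 and Mrps24 moved by 2-fold or more. In 24 members every KO library was above every WT library, and in 20 every KO library was below, against a background of 22.2% and 24.4% of tested genes.

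With total counts, 0 of 78 members rose (background 4.23%), 75 fell (background 70.7%) and 3 did not pass: Mrpl12, Mrps26 and Mrpl9. At an unadjusted p under 0.05 the number higher was also 0, which was fixed because all 78 members lay below 0. DESeq2, which scales by its own size factors, called 22 higher and 13 lower (background 15.6% and 11.9%). With total counts all 78 members lay below 0, with a median log2 fold change of -1.10 beside the -1.22 of all tested genes. Every rise named with TMM scaling is thus a value below 0 with total counts. The members together took 1.02%, 1.02% and 0.972% of all counts in WT libraries 1 to 3 and 0.484%, 0.492% and 0.497% in KO libraries 1 to 3. The groups did not overlap, and the mean share was 1.003 ± 0.0273% in WT and 0.491 ± 0.00642% in KO, 2.04-fold lower.

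**Figure D1:**
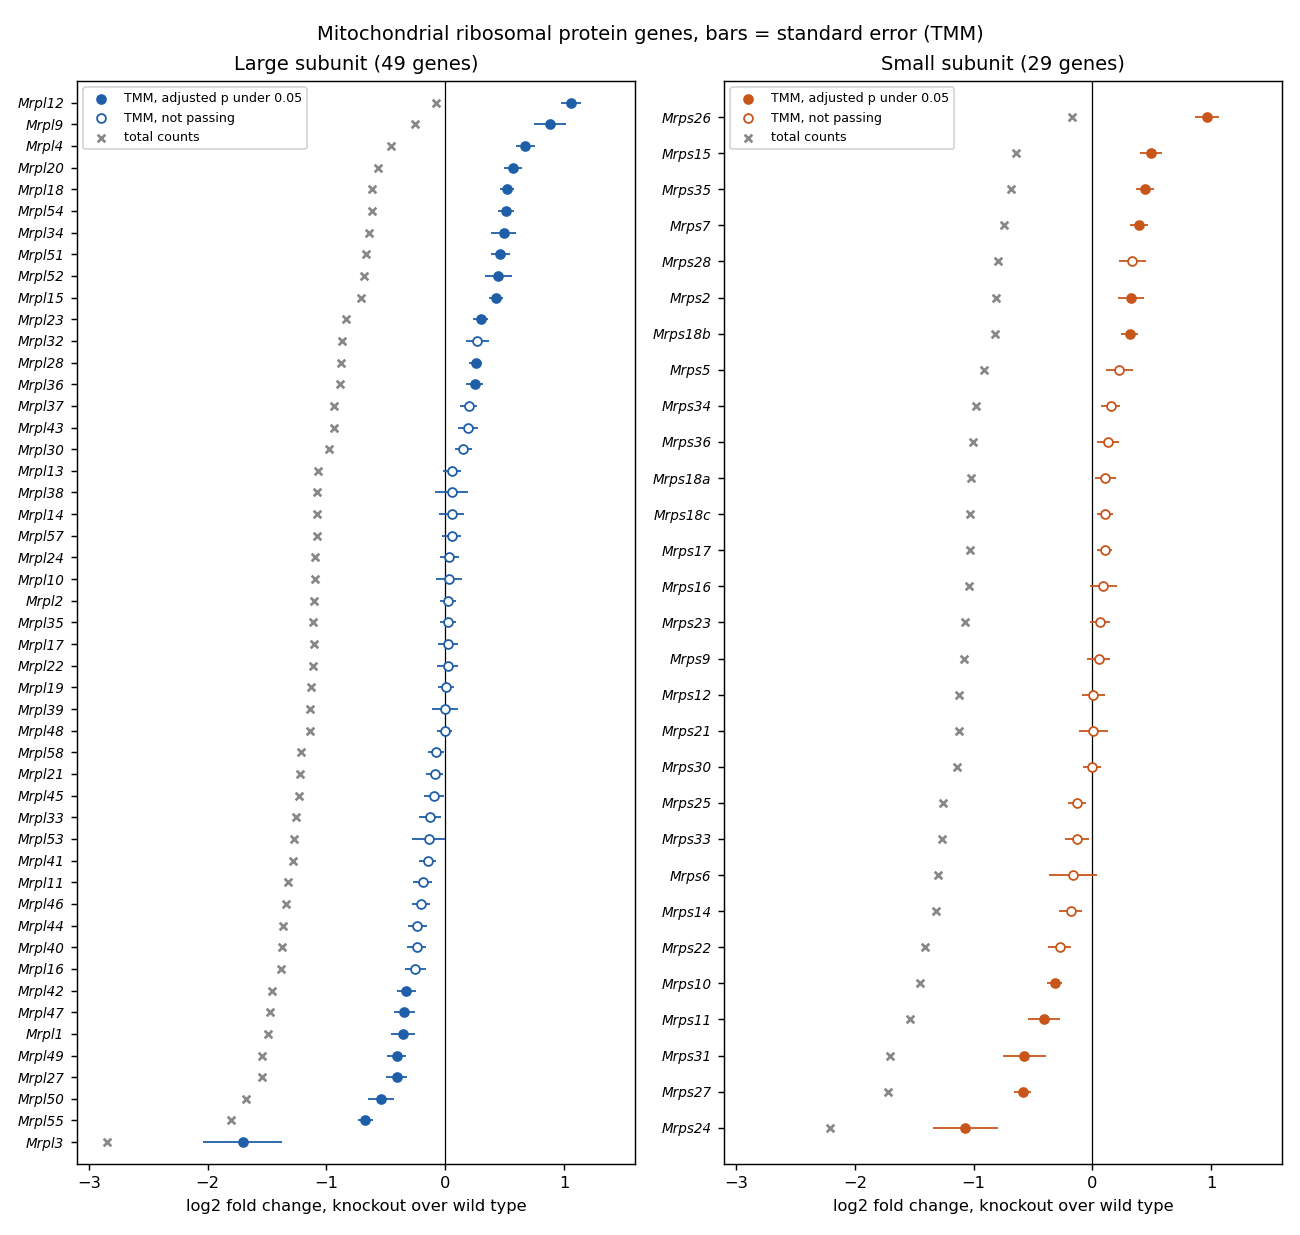
Each row is 1 of the 49 large-subunit (left) or 29 small-subunit (right) genes; the horizontal axis is the log2 fold change, KO over WT, with circles for TMM scaling (filled where the adjusted p is under 0.05, bars = standard error) and crosses for total counts. With TMM the circles lie on both sides of 0, from -1.71 for Mrpl3 to 1.06 for Mrpl12; with total counts all 78 crosses lie below 0.

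Both subunits held rises and falls with TMM, where 17.2% of all tested genes rose and 14.4% fell. Among the 49 large-subunit genes with TMM there were 13 rises, 8 falls and 28 genes not passing. Their median log2 fold change was 0.02. Of the 29 small-subunit genes 6 rose, 5 fell and 18 did not pass, with a median of 0.06. With total counts the medians were -1.11 and -1.07, with 47 of 49 and 28 of 29 genes falling, beside 70.7% of all tested genes.

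The balance between the subunits was measured within each library as the mean log2(CPM + 0.5) of the large-subunit genes minus that of the small-subunit genes, a difference from which library scaling all but cancels. It was 0.146, 0.169 and 0.211 in WT libraries 1 to 3 and 0.190, 0.175 and 0.201 in KO libraries 1 to 3. The groups overlapped, and the means of 0.175 ± 0.0332 and 0.189 ± 0.0134 differed by 0.01, less than the spread of either group. As summed counts, large over small, the log2 ratio was 0.99, 1.05 and 1.11 in WT and 1.10, 1.16 and 1.16 in KO. Those groups overlapped too, with a difference of 0.09. Large-subunit genes held 0.676 ± 0.0127% of all counts in WT and 0.338 ± 0.0068% in KO, 2.004-fold lower. Small-subunit genes held 0.327 ± 0.0167% and 0.153 ± 0.00123%, 2.13-fold lower.

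Some names do not match where the protein sits. Mrps18a and Mrps30 are large-subunit proteins in mammalian structures, and Mrps36 is now placed with the oxoglutarate dehydrogenase complex. Sorted by structure, the difference in subunit balance was 0.02. None of these 3 genes passed the test with TMM: Mrps18a had a log2 fold change of 0.11, Mrps30 of -0.01 and Mrps36 of 0.13.

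Mitoribosomal proteins are either inherited from the bacterial ribosome or found in mitochondria only. Of the 46 members of bacterial origin 13 rose, 8 fell and 25 did not pass with TMM, with a median log2 fold change of 0.04. Of the 32 found in mitochondria only 6 rose, 5 fell and 21 did not pass, with a median of -0.01. Mrps36 is counted among the 32 by its name. The shares that rose and fell were 28.3% and 17.4% for bacterial origin and 18.8% and 15.6% for the others. Over all tested genes they were 17.2% and 14.4%. In the large subunit the medians were 0.03 for the 30 of bacterial origin and -0.08 for the other 19. In the small subunit they were 0.07 for 16 and 0.06 for 13.

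**Figure D2:**
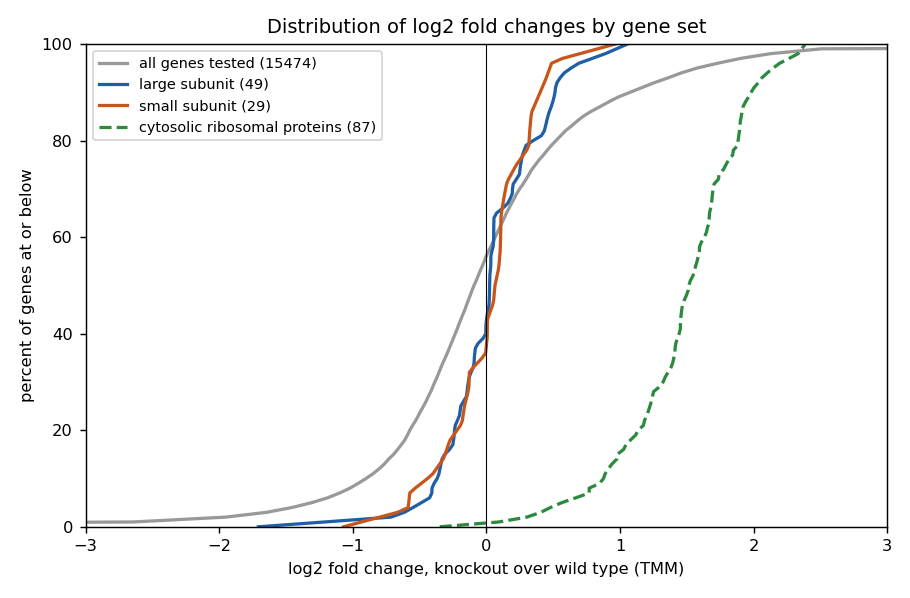
Cumulative share of genes (vertical axis, percent) at or below each log2 fold change with TMM (horizontal axis, KO over WT) for large-subunit, small-subunit and cytosolic ribosomal protein genes and for all tested genes. The curves of the 2 mitoribosomal subunits run together and are steeper than that of all genes, which are not matched for abundance. The cytosolic ribosomal proteins lie to the right, with a median of 1.52.

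The cytosolic ribosome, whose proteins are made from another set of nuclear genes, rose almost as a whole in the same libraries with TMM, and less so with total counts. Of its 87 protein genes 83 rose, 1 fell and 3 did not pass with TMM (background 17.2% higher and 14.4% lower). Their median log2 fold change was 1.52. With total counts 59 rose and 9 fell (background 4.23% higher and 70.7% lower), with a median of 0.38. Cytosolic ribosomal protein genes took 7.02 ± 0.402% of counts in WT and 9.96 ± 0.398% in KO. For each count on a mitoribosomal gene there were 7.35, 6.55 and 7.09 counts on cytosolic ribosomal protein genes in WT libraries 1 to 3. The same ratio was 21.2, 20.5 and 19.1 in KO libraries 1 to 3. The groups were far apart, with means of 6.996 ± 0.406 and 20.3 ± 1.06, a 2.90-fold difference that does not depend on library scaling.

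**Figure D3:**
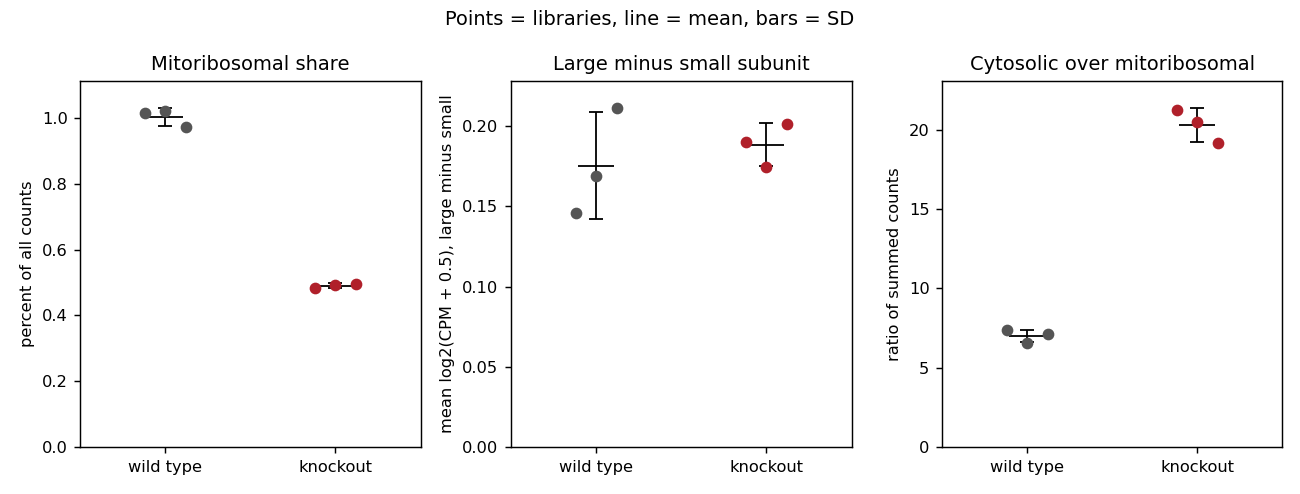
Values of each library, with points for libraries, lines for group means and bars for SD (3 libraries a group): the percent of all counts on the 78 members, the large minus small subunit difference in mean log2(CPM + 0.5), and the ratio of cytosolic to mitochondrial ribosomal protein counts. The KO points lie below WT in the first panel (0.484% to 0.497% against 0.972% to 1.02%), overlap WT in the second and lie above WT in the third (19.1 to 21.2 against 6.55 to 7.35).

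Among the large-subunit genes Mrpl12 rose most with TMM scaling. Mrpl12 (ENSMUSG00000039640, GRCm38 chromosome 11, 120484613 to 120489065, plus strand) encodes the stalk protein that contacts translation factors. It stood at 203, 186 and 200 CPM in WT and at 439, 429 and 357 CPM in KO. Every KO library was well above every WT library. The means of 196 ± 8.57 and 408 ± 44.3 CPM differed by 2.08-fold (log2 fold change 1.06, SE 0.09, adjusted p = 1.39e-05), and with total counts the log2 fold change was -0.08. Its share of all mitoribosomal counts went from 2.90 ± 0.149% in WT to 5.61 ± 0.627% in KO, a measure free of library scaling. Mrpl11, which roots the same stalk, did not pass (log2 fold change -0.19, adjusted p = 0.0934).

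Mrpl9 (chromosome 3, 94443318 to 94451130, plus strand), the homologue of a long rod-shaped protein on the side of the bacterial subunit, was a gene of low level. It stood at 8.14, 7.67 and 8.43 CPM in WT and 17.3, 14.6 and 12.7 CPM in KO. The groups did not overlap, and it rose with TMM (log2 fold change 0.88, SE 0.13, adjusted p = 0.00081). Mrpl4, whose bacterial homologue lines the tunnel through which the new chain leaves, stood at 74.3, 66.0 and 70.5 CPM in WT and 106, 121 and 110 CPM in KO. It also rose without overlap (log2 fold change 0.68, SE 0.08, adjusted p = 0.000176). Mrpl20, an rRNA-binding protein needed early in bacterial subunit assembly, and Mrpl18, the counterpart of a 5S rRNA-binding protein, completed the 5 largest rises of the large subunit. Mrpl20 went from 87.5 ± 6.28 to 130 ± 5.52 CPM (log2 fold change 0.57, adjusted p = 0.00036), and Mrpl18 from 99.0 ± 3.51 to 142 ± 3.21 CPM (0.52, adjusted p = 0.000197). With total counts these 4 had log2 fold changes of -0.25, -0.46, -0.57 and -0.61. The exons of Mrpl18 share 141 bases with the opposite-strand gene Tcp1, which rose as well (0.44, adjusted p = 0.00038), and the sources used here do not state if counting used strand.

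The other 8 large-subunit genes that rose with TMM were Mrpl54, Mrpl34, Mrpl51, Mrpl52, Mrpl15, Mrpl23, Mrpl28 and Mrpl36, with log2 fold changes from 0.25 to 0.51. Mrpl23, which sits by the exit of the tunnel, had 0.30. With total counts all 8 were below 0 and fell. The calls of Mrpl36 and Mrpl52 were lost in some fits that left out 1 library: Mrpl36 without WT 2, WT 3, KO 1 or KO 2, and Mrpl52 without WT 3 or KO 2.

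In the small subunit Mrps26 rose most with TMM. Mrps26 (ENSMUSG00000037740, chromosome 2, 130563742 to 130568695, plus strand) encodes a subunit found in mitochondria only. It stood at 71.4, 57.9 and 64.8 CPM in WT and 140, 124 and 115 CPM in KO. The lowest KO library was above the highest WT library, and the mean difference was 1.95-fold (log2 fold change 0.97, SE 0.10, adjusted p = 7.93e-05; with total counts -0.17). Mrps15, an rRNA-binding protein of the platform in bacteria, went from 125 ± 15.0 to 176 ± 8.86 CPM (0.49, adjusted p = 0.00294; with total counts -0.64, and 0.18, not passing, with the length and GC offset described further on). Mrps35, found in mitochondria only, Mrps7, a protein of the head, and Mrps2 had log2 fold changes of 0.45, 0.39 and 0.33, and -0.69, -0.74 and -0.81 with total counts. The call of Mrps2, at an adjusted p of 0.0468, was lost without WT 1, WT 2, KO 1, KO 2 or KO 3, where its log2 fold change ran from 0.27 to 0.38.

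The Mrps18 gene has 3 paralogous copies in mammals, of which Mrps18b and Mrps18c belong to the small subunit. Mrps18b stood at 96.3, 106 and 96.7 CPM in WT and at 117, 128 and 128 CPM in KO, and rose without overlap with TMM (log2 fold change 0.32, adjusted p = 0.00855; with total counts -0.82). With the length and GC offset described further on it did not pass (0.19). Mrps18c, the copy nearest the bacterial protein, had 156 ± 8.85 CPM in WT and 168 ± 5.82 in KO, not passing (0.11, adjusted p = 0.273). Mrps18a did not pass either (0.11, adjusted p = 0.393). The difference between the paralogs was not tested.

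**Figure D4:**
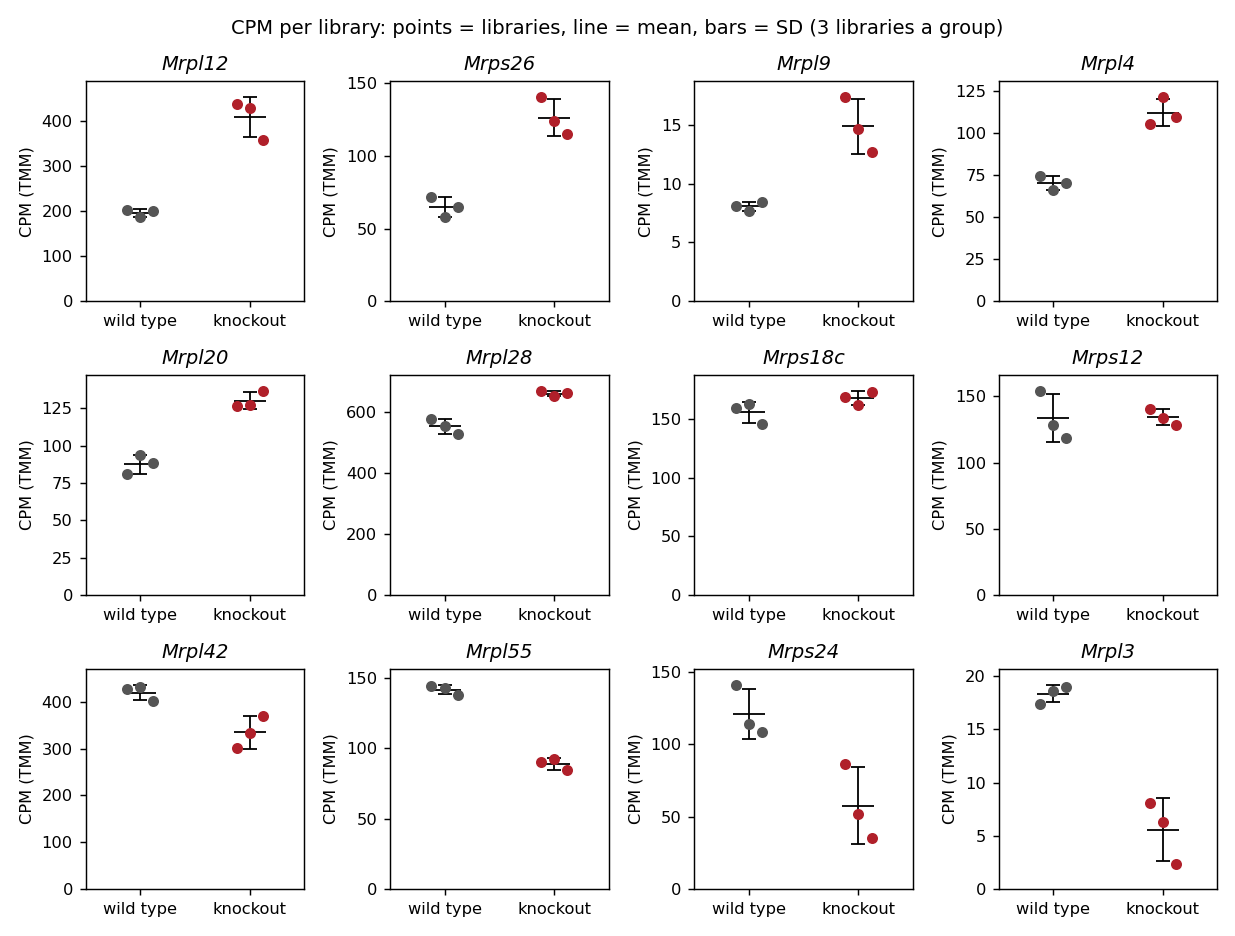
CPM with TMM scaling (vertical axes, from 0) in each WT and KO library for 12 members, with points for libraries, lines for means and bars for SD. KO libraries stand above WT for Mrpl12, Mrps26, Mrpl9, Mrpl4, Mrpl20 and Mrpl28, all of which are below 0 in log2 fold change with total counts, overlap WT for Mrps18c and Mrps12, and stand below WT for Mrpl42, Mrpl55, Mrps24 and Mrpl3.

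The largest fall was that of Mrpl3 (ENSMUSG00000032563, chromosome 9, 105053239 to 105079888, plus strand), whose bacterial homologue reaches close to the peptidyl transferase centre. It stood at 17.4, 18.7 and 19.0 CPM in WT and at 8.10, 6.30 and 2.30 CPM in KO. The WT libraries lay close together, while the KO libraries were all lower and spread widely. The mean was 3.26-fold lower in the fit (log2 fold change -1.71, SE 0.34, adjusted p = 0.00411, and -2.85 with total counts). Leaving out 1 library at a time kept the call, with log2 fold changes from -2.07 to -1.35. The call stood on 305, 223 and 66 counts in KO, against 1116, 1528 and 1645 in WT.

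Mrpl55, the counterpart of a small bacterial large-subunit protein, fell from 145, 143 and 138 CPM in WT to 90.0, 92.4 and 84.6 CPM in KO. The groups stood apart by many times their SD (log2 fold change -0.67, SE 0.06, adjusted p = 4.42e-05). Mrpl50 and Mrpl49, both found in mitochondria only, had log2 fold changes of -0.54 and -0.41. Mrpl27, whose bacterial homologue extends toward the peptidyl transferase centre, had -0.41. Mrpl42, also found in mitochondria only and the member with the highest per-length level in WT, stood at 427, 431 and 401 CPM in WT and 301, 333 and 370 CPM in KO. All KO libraries of Mrpl42 were lower, with a log2 fold change of -0.33 (adjusted p = 0.0132), and the call was lost without WT 2 (-0.30). The remaining 2 falls in the large subunit were Mrpl1, of the mobile stalk by the tRNA exit site, at -0.36, and Mrpl47, beside the tunnel exit, at -0.34. Their calls were lost without WT 2, WT 3 or KO 2, and that of Mrpl1 also without KO 3.

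Mrps24 (ENSMUSG00000020477, chromosome 11, 5703983 to 5715680, minus strand) encodes a protein by the entry channel of the messenger RNA and had the largest fall of the small subunit. It stood at 141, 114 and 109 CPM in WT and at 86.7, 51.5 and 34.9 CPM in KO. All KO libraries were below all WT libraries, but they differed among themselves by more than 2-fold. The log2 fold change was -1.07 (SE 0.27, adjusted p = 0.0153), and the call was lost without WT 1 (-0.93) or without KO 2 (-0.99). Its exons share 226 bases, 15.4% of their length, with Urgcp on the same strand, which stood at 4.98 to 6.14 CPM in WT and 7.46 to 9.13 in KO.

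Mrps27, a pentatricopeptide-repeat protein that binds RNA, fell from 60.7, 61.5 and 57.8 CPM to 39.5, 40.1 and 40.3 CPM. Both groups were tight and far apart (log2 fold change -0.59, SE 0.07, adjusted p = 0.000181). Mrps10, of the head, went from 139 ± 3.43 to 112 ± 4.79 CPM (-0.32, adjusted p = 0.0046). Mrps31, found in mitochondria only, was low in both groups, at 6.65 ± 0.881 and 4.47 ± 0.834 CPM, and had -0.57. Mrps11, of the platform, had -0.41. The calls of Mrps31 and Mrps11 were lost without any 1 library other than KO 2. Mrps11 and Mrpl46 are neighbours on opposite strands whose exons share 173 bases.

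With 1 library left out at a time, 16 of the 19 rises and 7 of the 13 falls were kept in all 6 fits. The share of calls kept over all tested genes was not computed here, so these counts do not set the members apart. Without WT 2 the number that fell was 8 rather than 13. The 7 falls are Mrpl3, Mrpl55, Mrps27, Mrpl50, Mrpl27, Mrpl49 and Mrps10. Of the members that did not pass, Mrpl40 lay nearest the threshold (-0.24, adjusted p = 0.0501), followed by Mrpl44 (-0.24, 0.0508) and Mrps28 (0.34, 0.0517).

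Members at the decoding centre, at the membrane and in ribosome rescue did not pass the test with TMM. Mrps12, of the decoding centre, stood at 134 ± 18.3 CPM in WT and 134 ± 5.99 in KO (log2 fold change 0.01, adjusted p = 0.965). Mrpl45, which anchors the ribosome to the inner membrane, stood at 115 ± 8.06 and 108 ± 9.03 CPM (-0.09, adjusted p = 0.45). Mrpl58, a hydrolase that frees chains from stalled ribosomes, stood at 115 ± 6.12 and 109 ± 2.78 CPM (-0.08, adjusted p = 0.415). None of these 3 passed the test, and the groups overlapped in each; with total counts all 3 fell, to -1.12, -1.23 and -1.21.

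Each member's share of all mitoribosomal counts gives a comparison that needs no library scaling. On that measure 18 members were higher in every KO library than in every WT library, 26 were lower and 34 overlapped, beside 18.8% and 29.8% of all tested genes measured against the same sum. Among large-subunit genes the counts were 13, 17 and 19, and among small-subunit genes 5, 9 and 15. Mrpl28 held the largest mean share in both groups, 8.14 ± 0.0608% in WT and 9.06 ± 0.019% in KO. Mrpl42 went from 6.19 ± 0.194% to 4.5998 ± 0.484%.

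Levels between genes are compared per length, as the deposited FPKM (reads scaled to transcript length and sequencing depth). The members spanned a 178-fold range in WT, from 4.45 ± 0.259 FPKM for Mrps5, by the messenger entry, to 792 ± 40.9 FPKM for Mrpl42. Their median was 59.997 FPKM in WT and 29.3 FPKM in KO, and these FPKM carry library totals, not TMM scaling. In WT 26 members were at 100 FPKM or more and 9 were under 10. The order was much the same in both groups: Spearman's rho of the mean FPKM across the 78 genes was 0.97, as a description over genes that share libraries. Mrpl42 ranked first in WT and second in KO, where Mrpl28, at 352 ± 2.86 FPKM, came first. Mrps18c and Mrps21, a short protein of the small-subunit platform, led the small subunit in WT, at 318 ± 22.0 and 272 ± 40.8 FPKM. At the other end Mrpl1 stood at 4.89 ± 0.431, Mrps31 at 5.26 ± 0.488 and Mrpl9 at 6.18 ± 0.326 FPKM in WT. Mrpl3 was lowest in KO, at 0.857 ± 0.461 FPKM.

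FPKM of single members can move without their counts. Mrpl17 had 11589, 13714 and 13338 counts in WT libraries 1 to 3 but 32.0, 85.3 and 29.2 FPKM. The length implied by count and FPKM differed 2.90-fold between libraries for Mrpl17 and 2.19-fold for Mrpl3, so tests were made on counts.

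Relations of the differences to gene length and level were weak. Across the 78 genes Spearman's rho of the TMM log2 fold change was -0.06 with summed exon length, 0.20 with GC content and 0.11 with mean WT FPKM, given as descriptions over genes of the same libraries. Over 15463 tested genes rho with exon length was -0.27. When an offset fitted over all genes for exon length and GC content was applied, 19 members were called higher (background 16.0%) and 26 lower (background 14.1%), with a median of -0.06. Of the 19 rises 11 stayed higher, 6 no longer passed, and Mrpl34 (-0.40) and Mrpl36 (-0.27) were called lower. Mrpl54 (-0.18), Mrpl28 (-0.18) and Mrpl52 (-0.12), which did not pass, were below 0 too. Mrpl18 (0.13), Mrps15 (0.18) and Mrps18b (0.19) stayed above 0 without passing, and Mrpl12 stood at 0.67. Of the 13 falls 8 stayed lower, among them Mrps24 (-1.49), Mrpl55 (-1.29) and Mrpl27 (-1.02). The 5 that no longer passed were Mrpl42, Mrpl1, Mrpl47, Mrps10 and Mrps31. With that offset rho of the members' log2 fold change with exon length became 0.63, from short genes such as Mrpl34 (607 bases) to long ones such as Mrps35 (8631 bases).

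**Figure D5:**
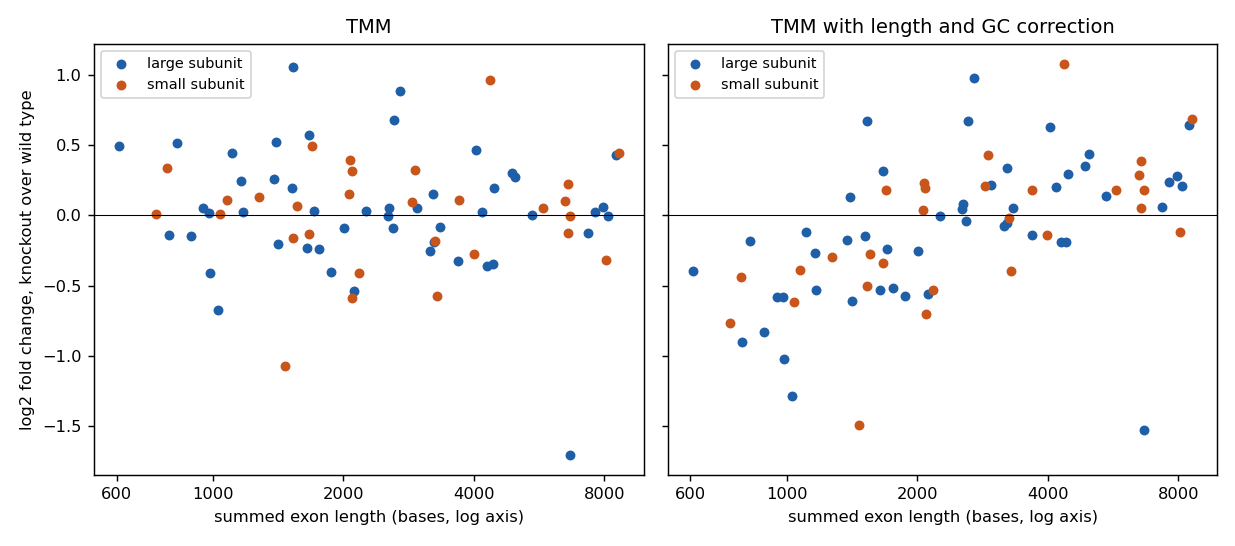
Log2 fold change, KO over WT, of each member (vertical axis) against its summed exon length in bases (horizontal log axis) with TMM (left) and with TMM plus the length and GC offset (right). The left cloud has little slope (rho -0.06) and the right one rises with length (rho 0.63).

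The exons of 33 members overlap another annotated gene, on the opposite strand in 28 and on the same strand in 8. In 9 members a single other gene covers over 20% of the exons, with several partners of 1 member not added up. Examples are Mrpl53, 88.0% shared with Gm42688 on its own strand, Mrps25, 69.8% shared with Nr2c2 on the other strand, and Mrps34, 63.4% shared with Mapk8ip3 and 37.0% with Nme3. Counts of such genes may be split or mixed. Of the 9, Mrps18b (30.5%, Gm16279) rose and Mrps27 (24.2%, 6430562O15Rik) fell with TMM, and both partners lie on the opposite strand. The other 7 did not pass.

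The rest of the mitochondrial translation apparatus also moved in both directions with TMM, where 17.2% of all tested genes rose and 14.4% fell. Of 5 mitoribosomal proteins under other names none rose, Ptcd3 fell and 4 did not pass. Ptcd3, a pentatricopeptide-repeat protein of the small subunit, went from 29.2 ± 3.23 to 16.4 ± 2.71 CPM (log2 fold change -0.83, adjusted p = 0.00123). Dap3, a GTP-binding protein of the small subunit, did not pass (0.18, adjusted p = 0.0872). Of 15 mitochondrial translation factors 2 rose, 4 fell and 9 did not pass, with a median of -0.20. The elongation factor Tufm went from 62.9 ± 4.45 to 95.9 ± 4.81 CPM (0.61, adjusted p = 0.000324), and its exchange factor Tsfm had 0.43. The recycling factor Gfm2 (-0.76), the initiation factor Mtif3 (-0.39), the RNA-binding Slirp (-0.40) and the peptide deformylase Pdf (-1.21) fell. Pdf was low in both groups, at 1.65 ± 0.390 CPM in WT and 0.718 ± 0.247 in KO (adjusted p = 0.0344). With total counts both Tufm (-0.52) and Tsfm (-0.70) fell.

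Of 29 genes for mitoribosome assembly and rRNA modification 5 rose, 9 fell and 15 did not pass with TMM. That is 17.2% higher and 31.0% lower, against 17.2% and 14.4% of all tested genes. C1qbp, a matrix protein known to bind RNA and the mitoribosome, stood at 171, 165 and 168 CPM in WT and at 315, 303 and 306 CPM in KO. The groups were tight and far apart (log2 fold change 0.88, SE 0.06, adjusted p = 3.12e-06), and with total counts it fell (-0.26). Noa1, a GTPase of small-subunit assembly, and Rbfa, which binds the small-subunit rRNA, also rose (0.88 and 0.43; with total counts -0.25, not passing, and -0.71). The largest falls were those of Rcc1l (-1.28) and Afg3l2 (-1.23), followed among the lowest p-values by Malsu1 (-0.69). Afg3l2 is part of the inner-membrane protease that matures Mrpl32, itself not passing (0.27, adjusted p = 0.067), and Malsu1 binds the large subunit late in assembly.

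Of 14 genes for mitochondrial transcription and RNA processing 1 rose, 3 fell and 10 did not pass with TMM. That is 7.14% higher and 21.4% lower, against 17.2% and 14.4% of all tested genes. The gene that rose was the RNA polymerase Polrmt (0.50, adjusted p = 0.0482, and -0.64 with total counts). Those that fell were Elac2 (-1.09) and Prorp (-0.997), which cut tRNAs out of the long transcripts, and Hsd17b10 (-0.33), a partner of Prorp. Tfam, which packages mitochondrial DNA, did not pass (0.00, adjusted p = 0.992). Of 17 mitochondrial aminoacyl-tRNA synthetases 2 rose, 5 fell and 10 did not pass, that is 11.8% higher and 29.4% lower. Lars2, for leucine, stood at 510, 154 and 144 CPM in WT and at 3576, 3062 and 2604 CPM in KO. WT 1 was well above the other WT libraries, and every KO library was higher still. The log2 fold change was 3.52 (SE 0.47, adjusted p = 0.00038), and 2.40 with total counts. Tars2, the next most abundant gene of this list, stood at 60.3 ± 4.63 CPM in WT and 42.4 ± 2.05 in KO. Whether the reads counted on Lars2 all come from its messenger RNA was not tested. Vars2 rose (0.86; with total counts -0.27), and Tars2, Rars2 and Hars2 fell (-0.51, -0.59 and -0.90).

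The authors' deposited table classes 1 member as up (Mrpl12), 2 as down (Mrpl3 and Mrps24) and 75 as stable. By the adjusted p in the authors' deposited table, under 0.05, there are 18 members with a log2 fold change above 0 and 11 with one below 0. The shares of all genes so classed or called by the authors were not computed here, so these counts do not set the members apart.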

How the data were processed

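RNA sequencing libraries were made with a TruSeq kit and read on an Illumina NovaSeq, per the labels' protocols. Per the submitters' processing notes, mm10, featureCounts 2.0.1, HISAT2 2.2.1, DESeq2 1.32.0 and fastp 0.22.0 were used, with no roles stated, and strand use is not given. The authors deposited 1 table with raw counts per gene and library, and a length-scaled value per library. The deposited length-scaled values were taken as FPKM, because in 756 single-transcript genes at least 98.7% of values lay within 1% of a constant multiple of counts over length, and the library total used there was 1.19 to 1.22 times the counted total. The authors' comparison, per the file headers, gives a log2 fold change, its standard error, a p-value and adjusted p-value, a mean signal (normalized count) and a test score. Those authors' columns were used only where the authors' table is named.

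Counts were fitted with edgeR 4.0.16 in R 4.3.3 (filterByExpr, TMM, glmQLFit and glmQLFTest, 2-sided, Benjamini-Hochberg over 15474 genes, threshold 0.05). Group was the only term, and all 6 libraries entered. Standard errors are the size of the log2 fold change over the square root of F. Alternatives were total counts, DESeq2 1.42.0, no filter, a replicate block, a length and GC offset (spline with 5 degrees of freedom, GENCODE vM21) and leaving out 1 library. The procedure was also run on simulated counts with far fewer changed genes than were called here, and no statement above rests on that run. Replicate numbers are not stated to pair the libraries.

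The members and lists were chosen with earlier results of these data known. Genes named are the 5 largest rises and falls per subunit, all falls, the 2 highest and 2 lowest FPKM per subunit in WT, members with a particular role or place, and the 3 lowest p per direction of each list. Other members and list genes were named after their values were seen. Ly76 and Cd3e, and 1 translation factor and 1 RNA-processing gene of the lists, were not analysed here. Columns of other samples numbered 0. Totals of 42235077 to 58106099 counts set the counting error, and PCR copies are not separated.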

Additional observations from a re-analysis of the deposited data

How the results depend on the processing

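Against 19 higher and 13 lower members with TMM scaling, total counts gave 0 higher and 75 lower, DESeq2 22 and 13 (15.6% and 11.9% of all genes), no filter on low counts 18 and 16, and the replicate block 19 and 10. With the block Mrps2, Mrpl1, Mrps11 and Mrps31 did not pass. The length and GC offset gave 19 and 26 (16.0% and 14.1% of all tested genes), and 15 and 25 with the block. Leaving out 1 library gave 16 to 20 higher and 8 to 12 lower with TMM, and 75 to 76 lower with total counts, chosen after seeing the data, where the block also gave 75. Shares of all tested genes were not computed for fits without the filter, with the block or without 1 library. Those counts therefore do not set the members apart. Same-numbered libraries deviated together little (correlations 0.09, -0.03 and 0.08), so numbers were not taken as pairs.

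Large minus small subunit differed by 0.01, by 0.0883 with summed counts, 0.0732 with summed FPKM, 0.02 by structure and -0.0017 to 0.0310 without 1 library. The difference in share of counts stayed between -0.53 and -0.50 percentage points.

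With total counts these named members turned below 0 in log2 fold change: Mrpl12 -0.0765, Mrpl18 -0.61, Mrpl20 -0.57, Mrpl28 -0.88, Mrpl4 -0.46, Mrpl9 -0.25, Mrps12 -1.12, Mrps15 -0.64, Mrps18a -1.02, Mrps18b -0.82, Mrps18c -1.03, Mrps2 -0.81, Mrps21 -1.12, Mrps26 -0.17, Mrps35 -0.69, Mrps36 -1.004, Mrps5 -0.91 and Mrps7 -0.74. The median of all tested genes shifts with that scaling. With the length and GC offset, without and with the block, the sign turned for Mrpl28 (-0.18, -0.18), Mrpl58 (0.0535, 0.0546), Mrps12 (-0.62, -0.62), Mrps18c (-0.39, -0.39), Mrps21 (-0.77, -0.76), Mrps30 (0.18, 0.18) and Mrps36 (-0.30, -0.30), and the cause was not tested. Signs of values near 0 also turned for Mrps12 (-0.0113) and Mrps21 (-0.0121) without the filter and for Mrps30 (0.0102) with DESeq2. Without 1 library Mrps12 ran from -0.0619 to 0.14, Mrps21 from -0.0653 to 0.19 and Mrps30 from -0.0281 to 0.0730.

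With 3 libraries a group, calls near the threshold turn on single libraries, and low members such as Mrpl3 in KO rest on few counts.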
